A study of Homo sapiens with 4 samples.

Results

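The NRF2 antioxidant genes examined here are 9 named genes of the pathway that protects cells from oxidative and electrophilic stress. They are the transcription factor gene NFE2L2, its inhibitor KEAP1, and the target genes NQO1, HMOX1, GCLC, GCLM, TXNRD1, SRXN1 and TXN. They were taken by symbol from the raw count tables, and all 9 were found among the 29387 genes listed for all 4 libraries. The libraries hold mRNA of U87MG, an established human glioblastoma cell line. Invasive populations 1 and 2 were highly invasive cells recovered from organotypic brain slices, which are living brain sections kept in culture, and control populations 1 and 2 were poorly invasive cells from the same kind of culture. All 4 populations came from parental U87 cells kept with the slices for 1 week, in a neural stem cell medium that contained FGF and EGF, and all were then grown in vitro for 3 to 5 days ahead of RNA extraction. Each population gave 1 library. The study's design matches invasive 1 with control 1 (pair 1) and invasive 2 with control 2 (pair 2). Values therefore describe expanded cultures of 1 cell line, 2 libraries per group.

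NRF2, the protein of NFE2L2, is held in the cytoplasm by KEAP1, which presents it to a ubiquitin ligase for degradation. Oxidants and electrophiles modify cysteines of KEAP1, after which NRF2 accumulates, pairs with a small MAF protein and binds antioxidant response elements near its target genes. Because this control acts on the protein, the mRNA of NFE2L2 is not itself a measure of NRF2 activity. NRF2 is known for raising glutathione synthesis, thioredoxin recycling and quinone reduction in many tumours, glioblastoma included.

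The antioxidant response element was searched as the letters TGACNNNGC, on both strands, in RefSeq promoter windows of build GRCh38.p14. A window runs from 250 bases before to 50 bases after a transcript start. No other motif was searched. The table held 11 windows for 8 of the genes, NQO1, GCLC, NFE2L2, KEAP1, GCLM, TXNRD1, SRXN1 and TXN. The letters were found in 4 of the 11 windows, 1 of GCLM, 1 of KEAP1 and both of TXNRD1, against 13.3% of all 35116 windows in the table. The matches that lie wholly before a start are shown because they are the stretches of these promoters that carry the element's letters. Each is printed 5′ to 3′ on the strand of its gene with the matching letters in capitals. In lines that show GCTTAGTCA or GCTTTGTCA the element reads on the opposite strand. A match is a description of letters and does not show binding. Sequence outside the windows was not searched, so a gene without a match, or without a window as for HMOX1, may still have an element elsewhere.
GCLM, chr1:93909446-93909474, minus strand, 34 to 26 bases before the start: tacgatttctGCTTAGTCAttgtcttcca
KEAP1, chr19:10502784-10502812, minus strand, 31 to 23 bases before one of its 2 starts: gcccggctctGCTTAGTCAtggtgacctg
KEAP1, chr19:10502807-10502835, minus strand, 54 to 46 bases before the same start: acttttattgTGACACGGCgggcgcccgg
TXNRD1, chr12:104286920-104286948, plus strand, 102 to 94 bases before the downstream start: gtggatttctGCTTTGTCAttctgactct
TXNRD1, chr12:104215670-104215698, plus strand, 99 to 91 bases before the upstream start: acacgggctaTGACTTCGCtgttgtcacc
GCLM and KEAP1 thus hold the same 9 letters, GCTTAGTCA, close before a start, and the downstream TXNRD1 window holds a form that differs within the free positions.

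The libraries held 13829871 to 17817756 counts. Levels are given as counts per 1e6 counts (CPM), and 3 counts correspond to 0.168 to 0.217 CPM, a limit that covers counting error only. VIM, CD44, FN1 and NES, listed for the labelled cell line, summed to 13515 to 14533 CPM in invasive and 12618 to 14593 CPM in control libraries. NES had only 15.7 to 41.5 CPM, so the sum hardly reflects it. This sum does not by itself identify the cell line. GFAP, an astrocyte marker, had 2 to 4 counts in each library. Summed marker levels of other brain cell types were 2.24 to 2.91 CPM in invasive and 0.842 to 2.20 CPM in control libraries for astrocytes, and at most 1.88 and 1.40 CPM for oligodendrocytes, microglia and endothelium. AQP4, MOG, P2RY12 and CLDN5 were at 0 in all 4 libraries. The neuron list summed to 31.8 to 44.9 CPM in invasive and 40.4 to 45.4 CPM in control libraries.

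All 9 genes had their highest level in invasive 2. Among the 14231 genes that passed the filter on low counts, 28.1% had their highest level there. In KEAP1 the lead was small, with 103 CPM in invasive 2 and 102 CPM in invasive 1. SRXN1 had 28 counts in invasive 2 and 22 in control 2, and passed the filter through pair 2 alone. In each of the 9 the log2 difference between invasive and control was larger in pair 2 than in pair 1, as it was for 46.5% of all tested genes. In such bulk RNA, fewer expressing cells and less RNA per cell cannot be told apart. None of the 9 passed the adjusted threshold of 0.05 in edgeR's quasi-likelihood test (pairs as blocks), in which 0.239% of all tested genes were called higher and 0.0351% lower. At an unadjusted p under 0.05, 1 of the 9 was higher and 0 were lower, against 9.82% and 8.41% of all tested genes. DESeq2 with the same block also called 0 of the 9. The median log2 fold change (invasive over control) of the 9 was 0.27, against 0.01 over all tested genes. This median was −0.10 without invasive 2, 0.87 without invasive 1, 0.54 without control 2 and 0.21 without control 1, in fits with no block.

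**Figure D1:**
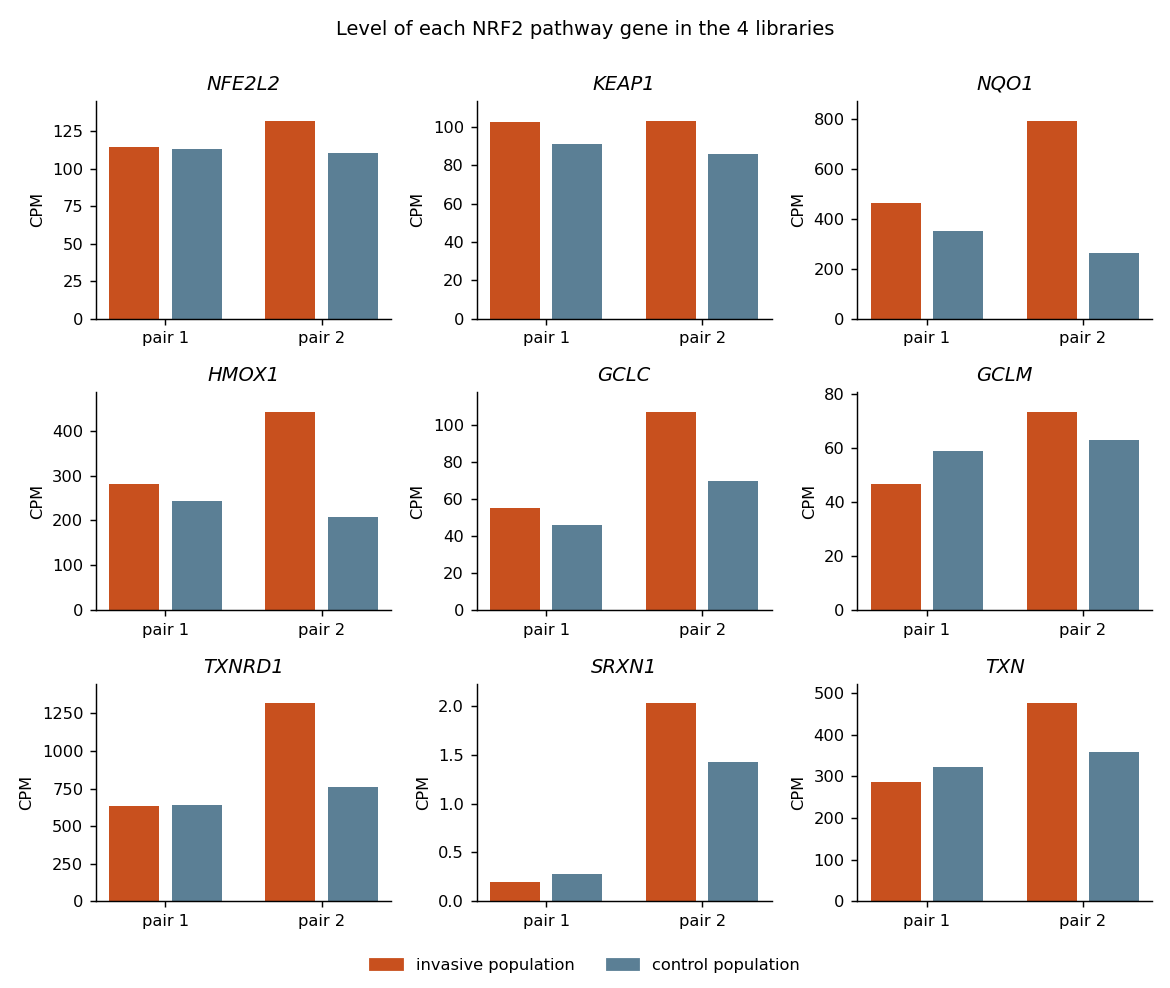
Level of each of the 9 genes in CPM (vertical axis, from 0, scaled per gene) in the invasive (orange) and control (blue) library of pair 1 and pair 2; each bar is 1 library. The tallest bar is invasive 2 in all 9 panels, and the invasive bar of pair 1 lies below its control for GCLM, TXNRD1, SRXN1 and TXN.

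NFE2L2 and KEAP1, the regulator and its inhibitor, had the narrowest ranges of level among the 9 genes. NFE2L2 (chromosome 2, 177227595 to 177392697, GRCh38) had 114 and 132 CPM in invasive 1 and 2, against 113 and 111 CPM in control 1 and 2. The invasive values lay above the controls, in pair 1 by a margin smaller than counting error, since the ratio was 1.01 (95% exact interval 0.947 to 1.08). In pair 2 the NFE2L2 ratio was 1.19 (1.12 to 1.28). Its log2 fold change was 0.12 ± 0.11 (SE, n = 2 per group, edgeR adjusted p = 0.599). KEAP1 (chromosome 19, 10486120 to 10503741), the adaptor that marks NRF2 for degradation, had 102 and 103 CPM in the invasive libraries, against 90.8 and 85.6 CPM in the controls. Both invasive libraries of KEAP1 lay above both controls, and the group means were 103 ± 0.60 and 88.2 ± 3.68 CPM (SD, n = 2 each). The log2 fold change of KEAP1 was 0.20 ± 0.09 with an edgeR adjusted p = 0.312, so a difference of this size did not pass. KEAP1 was the gene whose within-pair ratios were closest to each other, 1.13 (1.05 to 1.21) in pair 1 and 1.21 (1.12 to 1.30) in pair 2.

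The 2 largest fold changes were those of NQO1 and HMOX1. NQO1 (chromosome 16, 69706996 to 69726951), which reduces quinones with NAD(P)H and is a widely used readout of NRF2, had 463 and 792 CPM in the invasive libraries, against 350 and 262 CPM in the controls. The groups did not overlap, and invasive 2 was the highest and control 2 the lowest. Within pairs the NQO1 ratio was 1.32 (1.28 to 1.37) in pair 1 and 3.03 (2.92 to 3.14) in pair 2. The NQO1 means were 628 ± 232 and 306 ± 62.7 CPM in invasive and control populations (SD, n = 2 each), with a log2 fold change of 0.98 ± 0.39 and an edgeR adjusted p = 0.355. HMOX1 (chromosome 22, 35380361 to 35394214) encodes haem oxygenase, which splits haem into biliverdin, iron and carbon monoxide. HMOX1 had 282 and 442 CPM in the invasive libraries, against 244 and 207 CPM in the controls. Its order over the libraries was that of NQO1, with no overlap between groups. The HMOX1 ratio was 1.16 (1.11 to 1.21) in pair 1 and 2.14 (2.05 to 2.23) in pair 2, and the log2 fold change was 0.63 ± 0.25 (edgeR adjusted p = 0.309). NQO1 and HMOX1 were the 2 genes of the 9 at least 2-fold higher in pair 2, where 4.36% of tested genes were, and 0 of the 9 were in pair 1, where 3.23% were. In total 4 of the 9, NFE2L2, KEAP1, NQO1 and HMOX1, had both invasive libraries above both controls in CPM, as did 23.7% of all tested genes. For NFE2L2 this depended on the scaling, since its pair 1 log2 difference was −0.02 with TMM effective library sizes.

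The subunits of glutamate cysteine ligase, which carries out the rate-limiting step of glutathione synthesis, had different patterns over the libraries. GCLC (chromosome 6, 53497341 to 53616970), the catalytic subunit, had 54.9 and 107 CPM in the invasive libraries, against 46.1 and 69.6 CPM in the controls. The groups overlapped, because control 2 lay above invasive 1, yet each invasive library lay above its own control. GCLC ratios were 1.19 (1.08 to 1.31) in pair 1 and 1.53 (1.42 to 1.66) in pair 2. Its log2 fold change was 0.42 ± 0.12, and this was the gene with an unadjusted p under 0.05 (0.0128), with an edgeR adjusted p = 0.172. Without invasive 2 the GCLC fold change was −0.10 in a fit with no block. That fit set invasive 1 against both controls, of which control 2 lay above it and control 1 below it. GCLM (chromosome 1, 93885205 to 93909456), the modifier subunit that raises the enzyme's affinity for glutamate, had 46.8 and 73.3 CPM in the invasive libraries, against 58.8 and 62.8 CPM in the controls. The invasive libraries were the lowest and the highest of the 4, on either side of the controls. GCLM was lower in invasive 1 (ratio 0.797, 0.724 to 0.877) and higher in invasive 2 (1.17, 1.07 to 1.28), both beyond counting error. Its log2 fold change was −0.07 ± 0.15 (edgeR adjusted p = 0.848), and 0.25 without invasive 1.

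The thioredoxin genes were close to or below their control in pair 1 and above it in pair 2. TXNRD1 (chromosome 12, 104215779 to 104350305), the cytosolic reductase that keeps thioredoxin reduced, had 633 and 1316 CPM in the invasive libraries, against 644 and 760 CPM in the controls. Invasive 2 stood above the other libraries, which lay near each other. The TXNRD1 ratio was 0.984 (0.958 to 1.01) in pair 1 and 1.73 (1.69 to 1.77) in pair 2. Its log2 fold change was 0.37 ± 0.22 (edgeR adjusted p = 0.454), and −0.17 without invasive 2. TXN (chromosome 9, 110243811 to 110256640), thioredoxin itself, had 288 and 476 CPM in the invasive libraries, against 323 and 359 CPM in the controls. As for GCLM, invasive 1 was the lowest and invasive 2 the highest. TXN ratios were 0.892 (0.857 to 0.928) and 1.32 (1.28 to 1.37) in pairs 1 and 2, with a log2 fold change of 0.10 ± 0.16 (edgeR adjusted p = 0.775) that was −0.27 without invasive 2. The processed pseudogene TXNP5 had 2 to 5 counts per library, and reads shared with such copies cannot be placed with certainty.

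SRXN1 (chromosome 20, 646615 to 653370), which restores overoxidised peroxiredoxins, had very few counts, 3 and 28 in the invasive libraries against 5 and 22 in the controls. Those counts correspond to 0.194 and 2.02 CPM in invasive 1 and 2, and to 0.281 and 1.42 CPM in control 1 and 2. Pair 2 was higher than pair 1 in both groups. Ratios were 0.691 (0.107 to 3.55) in pair 1 and 1.42 (0.784 to 2.61) in pair 2, so no difference between invasive and control was detectable at this depth. The SRXN1 log2 fold change was 0.27 ± 0.47 (edgeR adjusted p = 0.801). In fits with no block it was −0.40 without control 1, −2.08 without invasive 2, 1.26 without invasive 1 and 1.89 without control 2. The difference between pairs enters these values. In GENCODE release 29, 85.0% of the exon bases of SRXN1 are also exon bases of the gene AL121758.1 on the same strand. AL121758.1 was not among the genes listed for every library and was not analysed here. The level of SRXN1 is therefore uncertain, and the part of this overlap in the low counts was not tested. Smaller shares of exon bases were shared by NFE2L2 with AC019080.1 on the same strand (17.6%, 12 to 21 counts per library in that gene) and by NQO1 with AC092115.2 on the opposite strand (17.7%, 0 to 1 count).

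**Figure D2:**
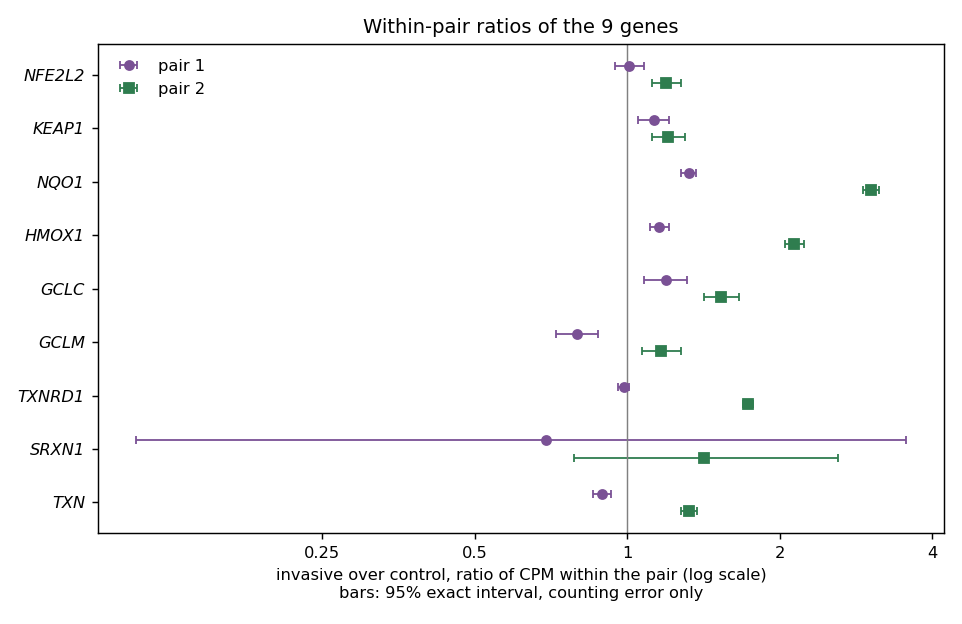
Ratio of CPM, invasive over control, within pair 1 (circles) and pair 2 (squares) for the 9 genes, on a log2 axis; bars are 95% exact (Clopper-Pearson) intervals for counting error alone. Every square lies to the right of its circle, with the widest gap in NQO1 (1.32 and 3.03) and the widest intervals in SRXN1.

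Within pairs, 5 of the 9 were higher in invasive cells both times (NFE2L2, KEAP1, NQO1, HMOX1 and GCLC), as were 36.0% of all tested genes, and 0 were lower both times, as were 29.3%. The other 4, GCLM, TXNRD1, SRXN1 and TXN, were lower in pair 1 and higher in pair 2, a pattern of 15.4% of all tested genes. In pair 1 the counting intervals of TXNRD1 (0.958 to 1.01) and SRXN1 (0.107 to 3.55) include 1. The interval of SRXN1 in pair 2 (0.784 to 2.61) does too. NFE2L2 in pair 1 sits at the border, with a log2 difference of 0.01 by library totals and −0.02 with TMM effective library sizes. The other signs were the same under both scalings. The authors' normalized values gave the same signs where they were listed, except a log2 difference of 0.00 for TXNRD1 in pair 1. The median log2 difference of the 9 was 0.01 in pair 1 and 0.47 in pair 2, against 0.04 and 0.01 over all tested genes. Each pair has 1 library per group, and the difference between the pairs' effects was not tested because no residual degree of freedom would remain.

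**Figure D3:**
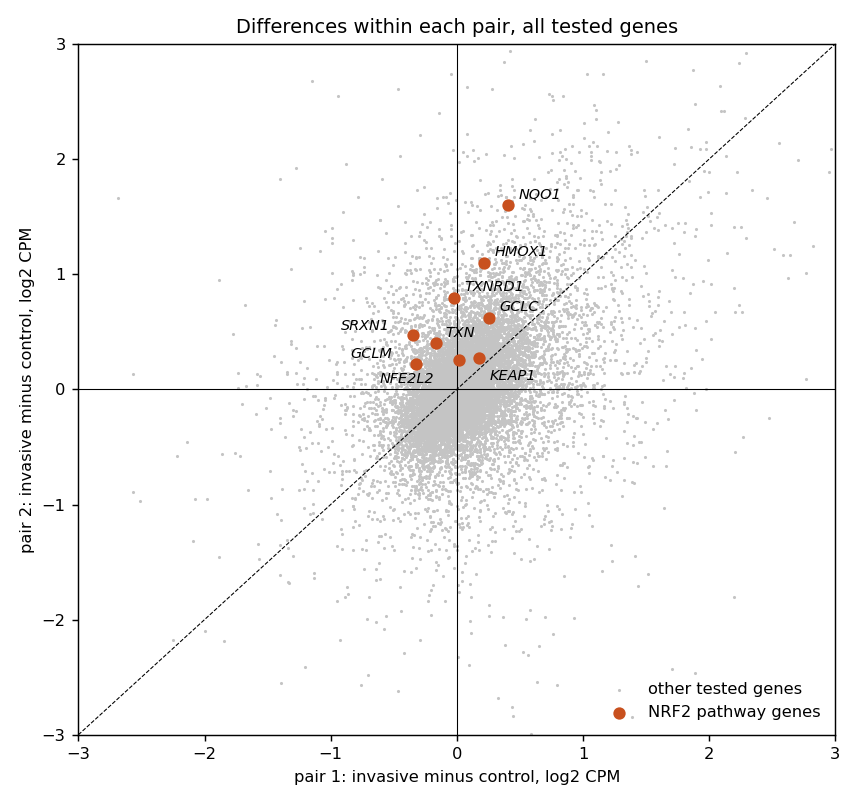
Log2 CPM difference, invasive minus control, in pair 1 (horizontal axis) and pair 2 (vertical axis) for all tested genes (grey) and the 9 NRF2 pathway genes (orange); 33 genes beyond 3 log2 units are not drawn. All 9 lie above the dashed line of equal differences, NQO1 highest at 0.40 and 1.60.

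Control 2, against which invasive 2 was compared, had high levels of 2 cytokine genes, chosen after their values were seen. CSF3 had 21.1 and 12.7 CPM in invasive 1 and 2, against 25.8 and 907 CPM in control 1 and 2. IL1B had 12.1 and 29.6 CPM in invasive 1 and 2, against 15.9 and 572 CPM in control 1 and 2. The related cytokine gene IL1A had its highest level in invasive 2, with 34 and 132 counts in invasive 1 and 2, against 32 and 85 counts in control 1 and 2. Without control 2 the log2 fold change was 0.81 for NQO1 and 0.54 for HMOX1, and without control 1 it was 1.25 and 0.80. Without invasive 2 the values were 0.57 for NQO1 and 0.30 for HMOX1, and without invasive 1 they were 1.35 and 0.95. Both genes were higher in invasive cells in each of these 4 fits, which had no block. That sign was fixed in advance, because both invasive libraries of each gene lay above both controls. The part of control 2 in these differences was not tested.

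The pair term of the same edgeR fit set pair 2 against pair 1 over both groups, and 0 of the 9 genes passed, as against 0.0984% of all tested genes. SRXN1 passed the filter on low counts through pair 2 alone, and its log2 fold change of 2.78 ± 0.51, pair 2 over pair 1, is given as a description. The part of the counting of overlapping genes in that step was not tested. Of the other 8 genes, 3 were higher in pair 2 at an unadjusted p under 0.05 and 0 lower, against 7.24% and 7.58% of tested genes. These 3 were GCLC (log2 fold change, pair 2 over pair 1, 0.78 ± 0.12, edgeR adjusted p = 0.108), TXNRD1 (0.65 ± 0.22, edgeR adjusted p = 0.315) and TXN (0.44 ± 0.16, edgeR adjusted p = 0.300). In GCLC the step between pairs was present in both groups, with invasive 2 at 1.95 times invasive 1 and control 2 at 1.51 times control 1. For TXNRD1 it was 2.08 times between the invasive libraries and 1.18 times between the controls. NQO1 had opposite steps, 1.71 times between the invasive libraries and 0.747 times between the controls. HMOX1, NFE2L2 and KEAP1 likewise had ratios above 1 between the invasive libraries (1.57, 1.15 and 1.01) and below 1 between the controls (0.849, 0.976 and 0.943).

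Levels of different genes were set side by side per kilobase of exon, with exon lengths from GENCODE release 29. The length used was that of all annotated exon bases of a gene, which can exceed the length of the transcripts expressed. The order of genes close in level therefore depends on this divisor. TXN was the most abundant, at 252 and 416 CPM per kilobase in invasive 1 and 2, against 282 and 315 in control 1 and 2. NQO1, TXNRD1 and HMOX1 followed with means over the 4 libraries of 143, 125 and 122 CPM per kilobase, and their ranges overlapped. KEAP1 (25.4) and NFE2L2 (19.7) came next, and their ranges, 22.8 to 27.5 and 18.5 to 22.1 CPM per kilobase, did not overlap. By CPM alone, NFE2L2 lay above KEAP1 in every library. GCLM (11.1) and GCLC (8.02) overlapped in range. SRXN1 was lowest, at a mean of 0.364 CPM per kilobase, with 0.0719 in invasive 1 and 0.750 in invasive 2. The level of SRXN1 is uncertain because of the exon overlap given above. The abundant thiol and quinone enzymes thus exceeded the transcripts of their regulator and its inhibitor in every library.

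A further 83 genes of the pathway and of neighbouring redox systems were described in 7 lists, of which 82 were in the files and 75 were tested. None passed the adjusted threshold with edgeR, the lowest adjusted p being 0.0937. At an unadjusted p under 0.05, 13 of the 75 were higher (17.3%) and 5 lower (6.67%), against 9.82% and 8.41% of all tested genes. Of these 75, 33 were higher in both pairs (44.0%) and 15 lower in both (20.0%), against 36.0% and 29.3% of all tested genes. The same shares of all tested genes stand beside the both-pair counts of each list below. The log2 difference was larger in pair 2 for 36 of the 75 (48.0%, against 46.5% of all tested genes), and the highest level was in invasive 2 for 25 (33.3%, against 28.1%). In the pair term, 13 of the 75 were higher in pair 2 at an unadjusted p under 0.05 (17.3%, against 7.24%) and 3 lower (4.00%, against 7.58%).

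In the glutathione list, 11 of 14 genes were tested, with a median log2 fold change of 0.10, and 6 were higher and 2 lower in both pairs. SLC7A11, the cystine transporter that supplies cysteine for glutathione, had 53.5 and 309 CPM in the invasive libraries, against 55.5 and 94.8 CPM in the controls. Invasive 2 stood far above the other libraries, as for TXNRD1, and the log2 fold change was 0.83 ± 0.68 (edgeR adjusted p = 0.637). GSTO1, a glutathione transferase of the omega class, was lower in both pairs, with 137 and 156 CPM in the invasive libraries against 185 and 230 CPM in the controls (−0.52 ± 0.10, edgeR adjusted p = 0.0968). GSTM2, one of a family of near-identical transferases whose reads can be shared, had 0.44 ± 0.16 (edgeR adjusted p = 0.237).

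Of the NADPH-supplying enzymes, 5 of 6 were tested, all with positive log2 fold changes (median 0.21), and 2 were higher in both pairs. PGD, a dehydrogenase of the pentose phosphate pathway, had 0.23 ± 0.15, and the transketolase TKT had 0.21 ± 0.13.

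The list of carbonyl and quinone enzymes and exporters had 16 of 17 genes tested and a median of 0.18. In this list 8 were higher and 1 lower in both pairs. EPHX1, the microsomal epoxide hydrolase, had 76.3 and 81.9 CPM in the invasive libraries, against 49.0 and 35.4 CPM in the controls. ABCC2, an exporter of glutathione conjugates, had 71.8 and 61.0 CPM in the invasive libraries, against 32.5 and 41.2 CPM in the controls. EPHX1 and ABCC2 had both invasive libraries above both controls in CPM, as did 7 of the list's 16 and 23.7% of all tested genes. Their log2 fold changes were 0.90 ± 0.16 for EPHX1 and 0.84 ± 0.15 for ABCC2 (edgeR adjusted p = 0.0968 and 0.0937). Unlike NQO1, ABCC2 had the larger difference in pair 1. AKR1C3, whose reads can be shared with near-identical aldo-keto reductases, had 0.56 ± 0.16 (edgeR adjusted p = 0.166).

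Among haem and iron genes all 7 were tested, with a median of 0.27, and 5 were higher and 0 lower in both pairs. The ferritin chains store iron, including iron released by haem oxygenase. FTL, the light chain, had 2114 and 3534 CPM in the invasive libraries, against 1631 and 2092 CPM in the controls (0.55 ± 0.13, edgeR adjusted p = 0.130). FTH1, the heavy chain, had 3376 and 5626 CPM in the invasive libraries, against 2482 and 3909 CPM in the controls (0.47 ± 0.11, edgeR adjusted p = 0.128). For FTH1 the groups overlapped because control 2 exceeded invasive 1. FTL had both invasive libraries above both controls in CPM, as did 23.7% of all tested genes. Its margin was narrow, 2114 CPM in invasive 1 against 2092 CPM in control 2, and a gap this small depends on the scaling used. Both have many processed copies in the genome, so some reads may be shared. The haem transporter SLC48A1 had 0.33 ± 0.16 (edgeR adjusted p = 0.335).

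The list of NRF2 regulators had a median below 0 (−0.12), with 14 of 15 tested, and 3 higher and 8 lower in both pairs. MAFF, a small MAF protein that can partner NRF2, had 20.2 and 30.4 CPM in the invasive libraries, against 23.1 and 67.6 CPM in the controls. Its value was highest in control 2, the library with high CSF3 and IL1B, and the log2 fold change was −0.71 ± 0.25 (edgeR adjusted p = 0.252). CUL3, the scaffold of the ubiquitin ligase that KEAP1 serves, had 96.7 and 90.8 CPM in the invasive libraries, against 122 and 119 CPM in the controls. Both invasive libraries of CUL3 lay below both controls in CPM, as did those of 19.7% of all tested genes. Its log2 fold change was −0.38 ± 0.09 (edgeR adjusted p = 0.130). PALB2, a DNA repair protein that can also bind KEAP1, had −0.35 ± 0.16 (edgeR adjusted p = 0.303).

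In the thioredoxin and peroxiredoxin list all 14 were tested, with a median of 0.05, and 6 were higher and 3 lower in both pairs. TXNRD3, a low-abundance reductase paralogue of TXNRD1, had 5.75 and 4.56 CPM in the invasive libraries, against 1.85 and 2.78 CPM in the controls (1.15 ± 0.31, edgeR adjusted p = 0.155). TXNIP, which binds and inhibits thioredoxin, had 176 and 123 CPM in the invasive libraries, against 147 and 78.6 CPM in the controls (0.43 ± 0.12, edgeR adjusted p = 0.166). The glutaredoxin GLRX3 had −0.43 ± 0.10 (edgeR adjusted p = 0.129). Genes that remove superoxide and peroxide had a median of 0.01 over 8 of 10 tested, with 3 higher and 1 lower in both pairs. SOD2, the mitochondrial superoxide dismutase, had 269 and 196 CPM in the invasive libraries, against 155 and 1161 CPM in the controls. It was again control 2 that stood apart, and the log2 fold change was −0.91 ± 1.65 (edgeR adjusted p = 0.840). GPX8 and CAT had 0.41 ± 0.16 and 0.28 ± 0.10 (edgeR adjusted p = 0.265 and 0.234).

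**Figure D4:**
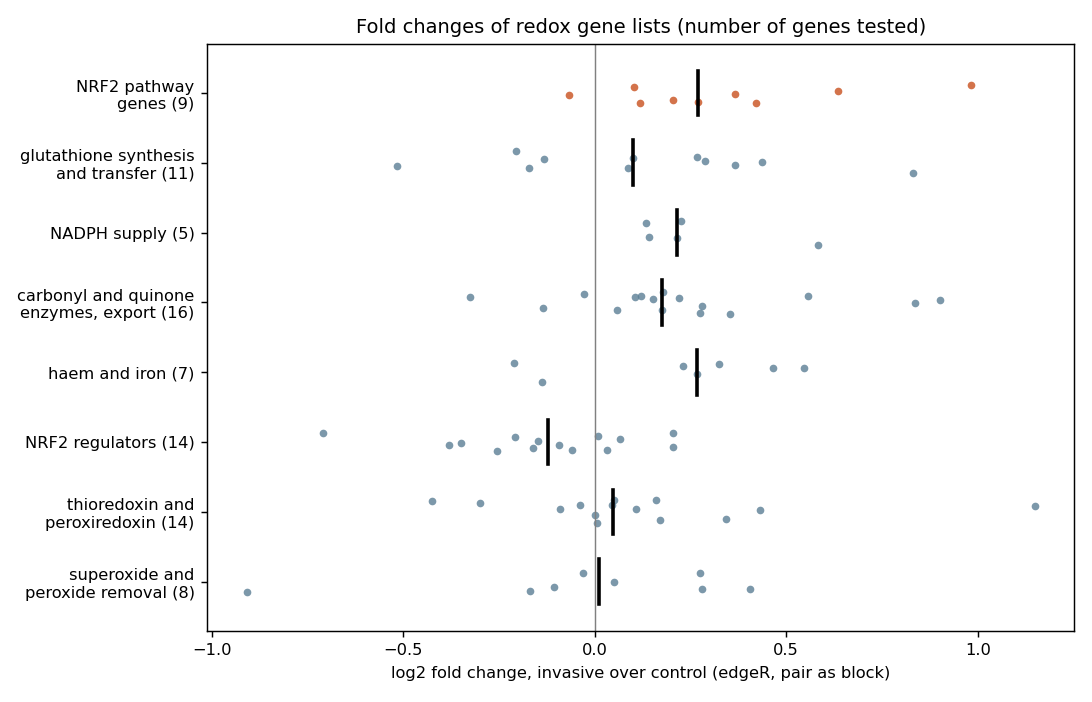
Log2 fold change, invasive over control, of each tested gene (points) in the 9 NRF2 pathway genes (orange) and in the 7 further lists (blue), with the median as a black bar; points are spread vertically only for legibility. Medians run from −0.12 in the NRF2 regulators to 0.27 in the 9 genes and in the haem and iron list.

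Of the 9, SRXN1 had the largest range of log2 CPM over the 4 libraries (2.75), followed by NQO1 (1.60), and NFE2L2 the smallest (0.26). The protein-coding genes whose profile over the 4 libraries was most like that of SRXN1 were TXNDC5, PDXP, IL1A, CD300C and C20orf24. Their root-mean-square distance in centred log2 CPM was 0.125 to 0.434. Those most like NQO1, a profile looked up after its values were seen, were SLC6A9, ANXA10, GNG4, TRIM16L and DNAJB4, at 0.0610 to 0.0739. TRIM16L, for example, had 21.3 and 41.2 CPM in invasive 1 and 2, against 16.8 and 12.0 CPM in control 1 and 2. A profile of 4 libraries is short, and likeness here is only a description.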

How the data were processed

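Per the labels' protocols, strand-specific polyadenylated RNA libraries were made from 4 populations. The authors deposited raw read counts per gene for each library. The tools named, without roles, in the submitters' processing notes are TopHat2 2.0.12, HTSeq, Bowtie, DESeq2 and bcl2fastq 1.8.4, on build GRCh38. Whether reads were counted by strand is not stated there. The deposited normalized values are a score rounded to whole numbers, by a method not given there, and served 1 alternative.

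Pair 1 files listed 32100 genes and pair 2 files 33485, and CPM were taken over the 29387 in all 4. Genes were filtered with filterByExpr (minimum count 10, minimum total 15), which left 14231. They were tested two-sided with edgeR 4.0.16 (R 4.3.3, TMM, robust prior, pair as block), adjusted by Benjamini-Hochberg at 0.05, and the code was tested on simulated data. SE is the log2 fold change divided by the root of F. DESeq2 1.42.0 was an alternative, as were another normalization, no filter, no block and each library left out. The block follows the design text, and deviations of same-numbered libraries correlated across genes (r = 0.283). One residual degree of freedom remains, so spreads lean on a prior worth 5.45 degrees. The labels do not call the controls separate cultures, so p-values measure the spread between these libraries. Within-pair log2 differences used a prior count of 2 and had no test. PCR reads are not independent molecules, so intervals cover counting error only.

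The members and lists were chosen with earlier results of these data known. From each further list the 3 genes with the largest absolute fold change are named, plus any past the threshold. One gene that this rule names is not reported here.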

Additional observations from a re-analysis of the deposited data

How the results depend on the processing

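Calls depended on the fit. For all genes the main test called 34 higher and 5 lower. With no replicate block it called 2 and 0, with RLE normalization 80 and 9, with DESeq2 and the block 142 and 29, and with no filter 760 and 693. Leaving out one library gave 3 to 55 higher and 0 to 61 lower. For the 9 genes, calls stayed at 0 in each of these fits except that with no filter, which called 3 higher, HMOX1, GCLC and TXNRD1 (edgeR adjusted p = 3.89e-05, 0.0108 and 0.0455). Their log2 fold changes there were 0.61, 0.40 and 0.34, close to the 0.63, 0.42 and 0.37 with the filter, and the cause was not tested. Between pairs, 14 genes were called, against 962 with no filter, 33 with RLE and 84 with DESeq2.

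The median of the 9 ranged from −0.10 to 0.87 over fits that left out 1 library, and from 0.20 to 0.37 in the other fits. Fits with a library left out had no block, so differences between the pairs enter their values. Over the same left-out libraries SRXN1 ranged from −2.08 to 1.89, GCLM from −0.40 to 0.25, GCLC from −0.10 to 0.87, TXNRD1 from −0.17 to 0.89 and TXN from −0.27 to 0.46, each changing sign. The fitted fold changes of NFE2L2, KEAP1, NQO1 and HMOX1 were positive in each of these fits. Both invasive libraries of each of these genes lay above both controls in CPM, so these signs are not separate support. The replicate block left the 9 genes' calls at 0 and changed no direction among them. Counting error was widest for SRXN1, to which DESeq2 gave no adjusted p.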

Other observations

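Exon overlap was looked up for the 5 genes whose profile was most like that of SRXN1. In GENCODE release 29, 60.6% of the exon bases of TXNDC5, 62.6% of those of PDXP and 39.3% of those of C20orf24 are also exon bases of another gene on the same strand, against 85.0% for SRXN1 itself. IL1A and CD300C shared 0.0%. The share of all tested genes with such an overlap was not computed, so no excess can be read from these 5. TXNDC5, a disulfide isomerase of the endoplasmic reticulum, had 10 and 56 counts in invasive 1 and 2, against 13 and 45 in control 1 and 2. PDXP, a phosphatase of pyridoxal phosphate, had 3 and 27 counts in invasive 1 and 2, against 3 and 24 in control 1 and 2. The pair 1 files listed 32100 genes and the pair 2 files 33485. Whether reads of overlapping genes were assigned alike in both pairs was not tested.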
